A study of Mus musculus with 6 samples.

Results

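The genes described here are 10 members of the circadian clock, Arntl, Clock, Per1, Per2, Per3, Cry1, Nr1d1, Nr1d2, Dbp and Tef, measured in the irradiated jejunum of mice given VND3207 or its vehicle. They were chosen by name, as every non-control probe on the array that carries the symbol of a member. Earlier results of these data were known when the members were chosen. This gave 13 probes of 10 genes, among 55681 probes of 36163 gene names in all, and all 13 passed the filter on dim probes that kept 36088. VND3207, known here by its code name, was given into the stomach at 100 mg/kg to 3 male C57BL/6J mice, and 3 more males of that strain got vehicle alone. All 6 mice received 9 Gy of radiation 0.5 h afterwards, and 6 h later their jejunum was removed, so both groups are irradiated whole tissue. RNA of each mouse was read on its own 1-colour array. Neither the hour of the day at which each mouse was treated or dissected nor the age of the mice was given in the sources used here.

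The mammalian clock is a transcriptional feedback loop that runs in nearly every cell. The activators CLOCK and BMAL1, the product of Arntl, bind E-boxes and switch on the Per and Cry genes, whose proteins return to the nucleus and repress their own transcription. In a second loop the nuclear receptors REV-ERB alpha and beta, encoded by Nr1d1 and Nr1d2, repress Arntl, and in a further one the D-box factors DBP, TEF and HLF drive targets that NFIL3 represses. In the intestine the clock is known to time nutrient transport, drug efflux and cell division.

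The letters through which these loops are usually drawn were looked up in the promoters of the members, so that the values below can be read beside them. The windows are those of RefSeq on GRCm38.p6, from 250 bases before to 50 bases after each annotated start, 300 bases in all. They were found for 9 of the 10 members, as 14 windows, with none for Per2. On either strand the E-box letters CACGTG stood in 4 windows of 3 members (Per1, Cry1 and Tef), and 7.15% of 32851 windows of all genes hold them. The D-box letters TTATGTAA stood in 1 window, that of Per3, against 0.938% of all windows, and the form TTACGTAA in 0, against 0.119%. The ROR and REV-ERB letters TAGGTCA stood in 1 window, at the second start of Arntl, 31 bases after the start, against 2.606% of all windows. The cAMP element TGACGTCA stood in 0, against 1.79%. A palindrome such as CACGTG is counted once for both strands, and no searched motif overlaps another in the stretches shown. A match is a run of letters and no evidence of binding, and its lack in this window says nothing of sites elsewhere in the gene. The stretches of 80 bases around these matches are shown for the members with E-box or D-box letters and for Ciart, a clock repressor on the wider list below, whose window held 3 E-boxes. They are written 5′ to 3′ on the strand of the gene, with the matched letters in capitals. They are chr4:151044804-151044883 on the minus strand for Per3, chr15:81802509-81802588 and chr15:81811239-81811318 on the plus strand for the first and second start of Tef, chr11:69098746-69098825 on the plus strand for Per1, chr10:85185072-85185151 on the minus strand for Cry1 and chr3:95882266-95882345 on the minus strand for Ciart.
Per3: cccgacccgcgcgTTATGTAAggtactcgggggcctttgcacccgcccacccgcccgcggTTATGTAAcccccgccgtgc
Tef, first start: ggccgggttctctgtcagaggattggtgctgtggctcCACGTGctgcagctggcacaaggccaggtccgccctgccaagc
Tef, second start: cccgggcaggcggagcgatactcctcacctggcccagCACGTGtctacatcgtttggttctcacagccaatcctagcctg
Per1: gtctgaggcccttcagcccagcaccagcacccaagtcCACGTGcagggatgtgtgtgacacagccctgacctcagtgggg
Cry1: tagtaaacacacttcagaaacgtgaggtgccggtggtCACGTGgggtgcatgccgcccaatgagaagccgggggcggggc
Ciart: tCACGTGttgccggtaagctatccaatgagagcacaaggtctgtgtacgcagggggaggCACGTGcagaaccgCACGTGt
Counted from the start, the first base of the match lay at -205 and -158 in Per3, at -127 and -138 in the first and second windows of Tef, at -166 in Per1 and at -60 in Cry1. In Ciart the 3 matches began at -116, -58 and -44.

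Signals are given as log2 of the background-subtracted spot signal minus the 75th percentile of the array, so that 0 is the level of a spot at that percentile. A difference is VND3207 minus vehicle on that log2 scale with its standard error from limma, and a gene passed the test if its p, adjusted with Benjamini-Hochberg over all 36088 probes, was under 0.05. Each of the 13 member probes was well above background on all 6 arrays. All 3 VND3207 arrays were on slide 2 and scan 2 and all 3 vehicle arrays on slide 1 and scan 1, so slide, scan and treatment cannot be told apart in any difference between the groups. Of the non-control spots, 58.8% to 61.4% were well above background on the VND3207 arrays and 66.7% to 70.0% on the vehicle arrays. Correlations over all kept probes ran from 0.986 to 0.991 within VND3207, from 0.988 to 0.993 within vehicle and from 0.973 to 0.981 between the groups. In a piece of tissue, fewer cells of a type and less RNA per cell cannot be told apart.

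The clock genes of the irradiated jejunum were not called different between VND3207 and vehicle mice. In limma 0 of the 13 member probes passed as higher, where 0.926% of all probes did, and 0 passed as lower, where 14.6% of all probes did. The count was also 0 at an unadjusted p under 0.05, where 27.2% of all probes were. The groups overlapped on all 13 probes, while they did not overlap on 34.3% of all probes (above vehicle on 9.41%, below it on 24.9%). Under quantile normalization 0 of 13 passed as well, where 2.59% of all probes were higher and 8.97% lower, and likewise 0 of 13 with trends within each array corrected, where 3.41% were higher and 6.65% lower. Over the 10 genes, each taken at its brightest probe, the median difference was -0.09 and 4 of 10 differences were above 0. Over all probes the median was -0.06. The differences ran from -0.46 for Dbp to 0.70 for Arntl and the adjusted p values from 0.269 for Nr1d1 to 0.877 for Tef. What stood out on several members, by distance from the other mice, was 1 animal. In VND3207 mouse 2 the signals of Dbp, Tef, Per2, Per3 and Nr1d2 were the lowest of the 6 mice, and that of Arntl was the highest. Over all probes that mouse was the lowest on 19.1%. VND3207 mouse 3 was the highest of the 6 on 7 of the 10 genes, by less than 0.5 each time. Its share over all probes was not counted. For Arntl, vehicle mouse 3 lay 1.18 below the lowest other mouse.

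**Figure D1:**
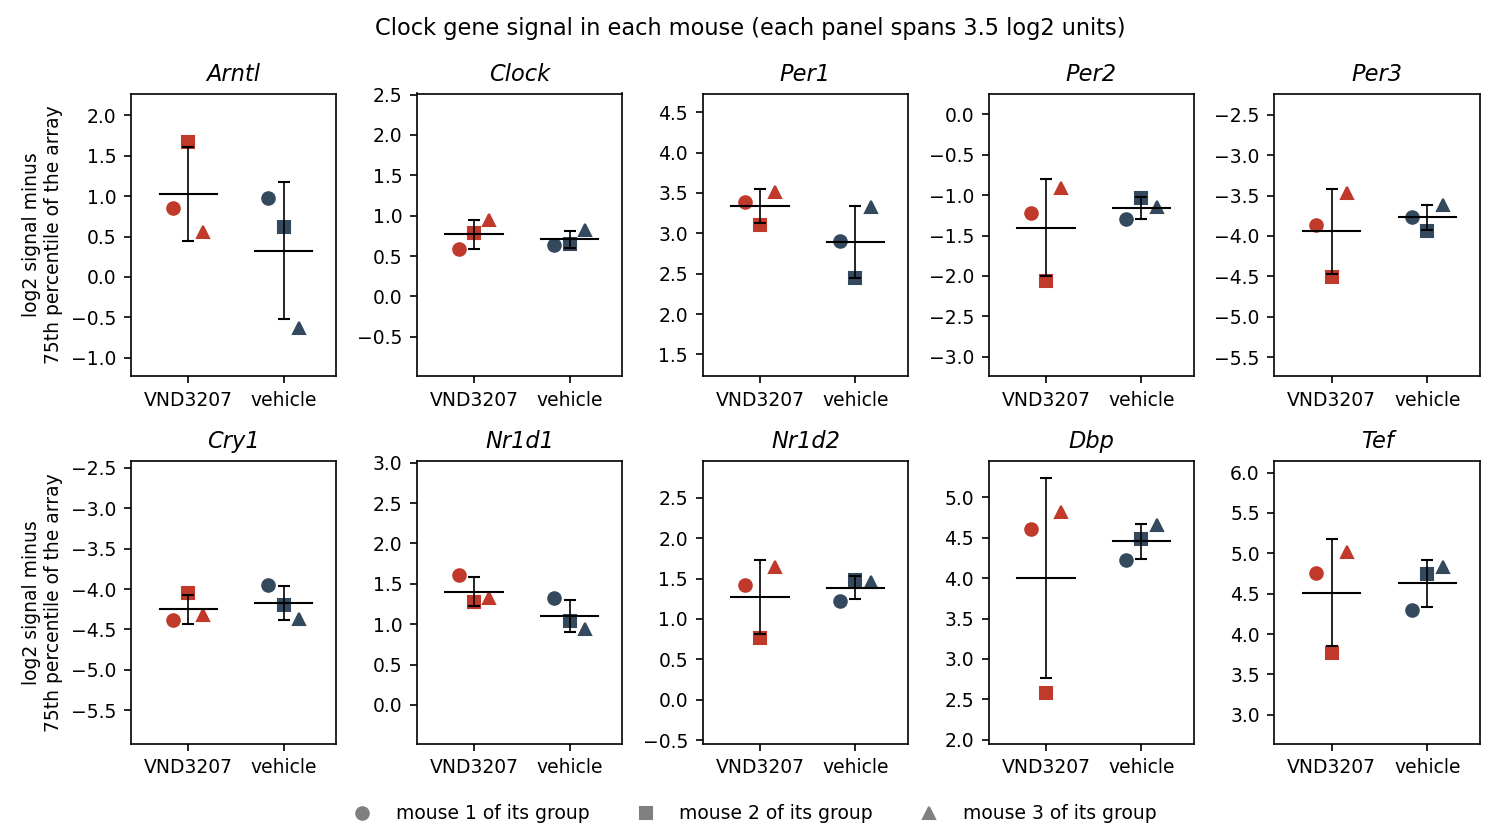
Signal of the 10 clock genes in each mouse at the brightest probe of the gene, as log2 signal minus the 75th percentile of the array, with VND3207 left and vehicle right; horizontal lines are means and error bars SDs of 3 mice. VND3207 mouse 2 (red square) lies lowest for Per2, Per3, Nr1d2, Dbp and Tef and highest for Arntl, at 1.68, while the groups overlap in every panel.

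Among the activators, Arntl had the largest difference of the 10 genes over all 6 mice. At its probe at chr7:120457261-120457320 (mm9, as the files give it) it read 0.85, 1.68 and 0.55 in VND3207 mice 1, 2 and 3, against 0.98, 0.62 and -0.63 in vehicle mice 1, 2 and 3. The highest value was that of VND3207 mouse 2 and the lowest that of vehicle mouse 3, and the groups overlapped. The difference was 0.70 ± 0.49 (SE; 95% interval -0.48 to 1.89; limma adjusted p = 0.431), and 0.38 ± 0.50 without VND3207 mouse 2 (adjusted p = 0.743). Without vehicle mouse 3 it was 0.23 (adjusted p = 0.763), smaller than that of Per1 at 0.66. Clock, whose product pairs with BMAL1, had the smallest SD over the 6 mice among the 10 genes (0.14). Its SD of 0.18 in the VND3207 mice was near the median over all probes, 0.17. Its probe at chr5:76641377-76641436 read 0.58, 0.79 and 0.94 in the VND3207 mice, against 0.64, 0.65 and 0.83 in the vehicle mice. Its difference was 0.07 ± 0.13 (95% interval -0.25 to 0.38; adjusted p = 0.804), with a sign that turned under normexp background correction and under correction of trends within the array.

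The Per genes encode the repressors that are produced and degraded in each cycle, and Per1 is also an early target of glucocorticoid and cAMP signals. At chr11:68923364-68923423 Per1 read 3.39, 3.10 and 3.52 in the VND3207 mice, against 2.91, 2.44 and 3.33 in the vehicle mice. The highest value was that of VND3207 mouse 3 and the lowest that of vehicle mouse 2, whereas VND3207 mouse 2 was within the range of the others. Per1 differed by 0.44 ± 0.24 (95% interval -0.15 to 1.04; adjusted p = 0.32), and by 0.56 ± 0.28 without VND3207 mouse 2 (adjusted p = 0.326). It was 0.22 without vehicle mouse 2, 0.19 with trends within each array corrected and 0.23 as the mean of both Per1 probes. A second probe under the Per1 symbol, at chr11:68919895-68919954, ranged from -3.999 to -3.82 in VND3207 mice and from -4.16 to -3.54 in vehicle mice, with a difference of 0.01 ± 0.18. The difference of this dim probe moved with the scaling. It was 0.35 under quantile normalization and in the deposited table, and 0.57 with trends within each array corrected (adjusted p = 0.0877).

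Per2 read -1.22, -2.07 and -0.91 in the VND3207 mice, against -1.30, -1.03 and -1.15 in the vehicle mice, at chr1:93313046-93313105. Per3, at chr4:150379256-150379315, read -3.86, -4.50 and -3.47 in the VND3207 mice, against -3.76, -3.93 and -3.62 in the vehicle mice. For both genes VND3207 mouse 2 lay below all others and VND3207 mouse 3 above all others, with the 3 vehicle mice close together between them. The difference was -0.24 ± 0.30 for Per2 (95% interval -0.96 to 0.48; adjusted p = 0.678) and -0.17 ± 0.27 for Per3 (95% interval -0.83 to 0.48; adjusted p = 0.745). Without VND3207 mouse 2 these became 0.09 ± 0.16 and 0.11 ± 0.18. The sign of the dim Per3 probe also turned with the scaling, to 0.17 under quantile normalization.

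Cry1, the other repressor arm of the loop and the partner of the PER proteins, was measured at chr10:84594731-84594790. It read -4.38, -4.05 and -4.33 in the VND3207 mice, against -3.95, -4.20 and -4.37 in the vehicle mice. The groups overlapped, and VND3207 mouse 2 was the second highest of the 6. The difference was -0.08 ± 0.15 (95% interval -0.45 to 0.30; adjusted p = 0.802), and 0.28 under quantile normalization (adjusted p = 0.289).

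The REV-ERB genes differed from each other in which mice were low. Nr1d1 had the lowest adjusted p of the members. Its probe, which the files place over chr11:98630526-98631028, a span longer than the 60-base probe, read 1.60, 1.28 and 1.32 in the VND3207 mice, against 1.32, 1.05 and 0.94 in the vehicle mice. The groups overlapped in 1 pair of mice, with 1.28 in VND3207 mouse 2 and 1.32 in vehicle mouse 1. Nr1d1 differed by 0.30 ± 0.15 (95% interval -0.06 to 0.67; adjusted p = 0.269), by 0.36 ± 0.18 without VND3207 mouse 2 (adjusted p = 0.313), and by 0.58 with trends within each array corrected (adjusted p = 0.0687). Nr1d2 at chr14:19036568-19036627 read 1.42, 0.76 and 1.65 in the VND3207 mice, against 1.22, 1.48 and 1.46 in the vehicle mice. VND3207 mouse 2 was again the lowest and VND3207 mouse 3 the highest. The difference was -0.11 ± 0.24 (95% interval -0.69 to 0.47; adjusted p = 0.822), and 0.15 ± 0.15 without VND3207 mouse 2. The second Nr1d2 probe, at chr14:19037253-19037312, gave the same picture, ranging from -0.06 in mouse 2 to 0.91 in mouse 3 among VND3207 mice and from 0.50 to 0.64 in vehicle mice.

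Dbp, a direct E-box target of the activators and a D-box factor itself, varied most between mice. Its probe at chr7:52965322-52965381 read 4.61, 2.58 and 4.82 in the VND3207 mice, against 4.23, 4.49 and 4.66 in the vehicle mice. VND3207 mice 1 and 3 were within or above the vehicle range, while VND3207 mouse 2 lay 1.65 below the lowest other mouse, and 4.40-fold below the mean of VND3207 mice 1 and 3. The group means were 4.003 ± 1.24 with VND3207 and 4.46 ± 0.22 with vehicle (SD, n = 3 each). The VND3207 SD of Dbp was at or above that of 98.6% of all probes tested, while the median SD over all probes was 0.17 with VND3207 and 0.18 with vehicle. The group difference was -0.46 ± 0.59 (95% interval -1.90 to 0.99; adjusted p = 0.694), and 0.26 ± 0.17 without VND3207 mouse 2 (95% interval -0.19 to 0.70; adjusted p = 0.487). The second Dbp probe, at chr7:52965461-52965520, read 4.37, 2.31 and 4.49 in the VND3207 mice, against 3.998, 4.10 and 4.31 in the vehicle mice. There VND3207 mouse 2 was 4.34-fold below the mean of VND3207 mice 1 and 3.

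Tef, which encodes another D-box factor, had 1 probe at chr15:81657221-81657280. It read 4.75, 3.76 and 5.02 in the VND3207 mice, against 4.30, 4.75 and 4.83 in the vehicle mice. VND3207 mouse 2 lay 0.54 below the lowest other mouse and 2.18-fold below the mean of VND3207 mice 1 and 3, and VND3207 mouse 3 was the highest. The difference was -0.11 ± 0.35 (95% interval -0.96 to 0.73; adjusted p = 0.877), and 0.26 ± 0.21 without VND3207 mouse 2 (adjusted p = 0.565).

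**Figure D2:**
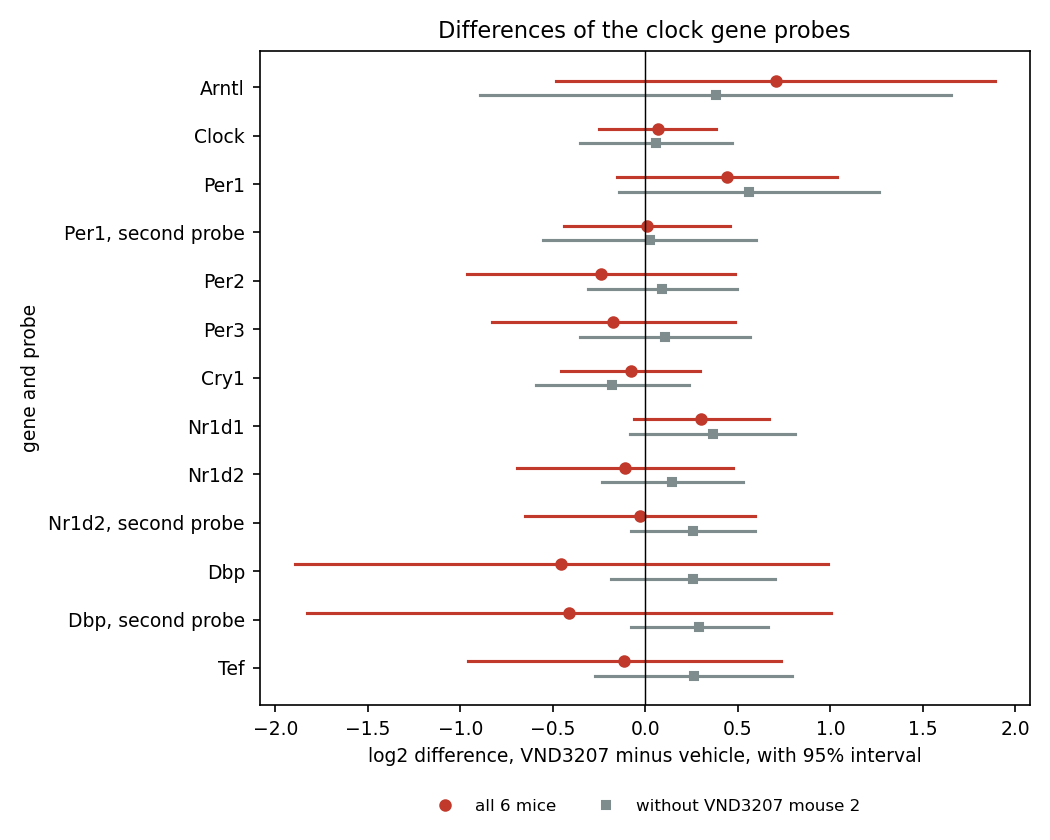
Difference between VND3207 and vehicle for each of the 13 clock gene probes on the log2 scale, with its 95% interval from limma, over all 6 mice (red circles) and without VND3207 mouse 2 (grey squares). Every interval covers 0; the interval of Dbp narrows when that mouse is left out, and its difference goes to 0.26.

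Leaving out VND3207 mouse 2 turned the sign of Per2, Per3, Nr1d2, Dbp and Tef, and the median of the 13 member probes was then 0.26, against -0.08 over all 6 mice. No member passed the test without that mouse either: 0 of 13 were higher, where 0.418% of all probes were, and 0 were lower, where 10.3% were. The median over all probes was -0.06 with and without that mouse.

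VND3207 mouse 2 was then set against the range of the other 5 mice, probe by probe, as a description with no test. The mouse and the limit of 0.5 log2 units were chosen after the values were seen, and the genes with earlier results of these data known. VND3207 mouse 2 lay at least 0.5 outside the range of the other 5 on 7 of the 13 member probes (53.8%), lower on 6 and higher on 1. These 7 count both probes of Dbp, and Nr1d2 only at its second probe (-0.56, against -0.46 at the brightest). Counted by gene at the brightest probe, the mouse was lower on 4 of the 10 genes and higher on 1. Over all 36088 probes the same mouse was outside by that limit on 3.29%, lower on 2.61% and higher on 0.684%. Among the 13132 probes at or above the 75th percentile, it was outside on 0.83%. That set does not hold the dimmer member probes, those of Per2, Per3 and Cry1 and the second of Per1, so it is not matched to the 13. The other mice were outside by that limit on 0 of the 13 member probes, except vehicle mouse 3 on 1, the Arntl probe, where it lay 1.18 below the lowest other mouse. Over all probes those 5 mice were outside on 1.63% to 4.04%, so that VND3207 mouse 2 did not stand apart from them over the array as a whole by this measure. VND3207 mouse 3 was the highest of the 6 on 9 of the 13 member probes, though by less than 0.5 each time. The share of all probes on which that mouse was the highest was not counted.

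**Figure D3:**
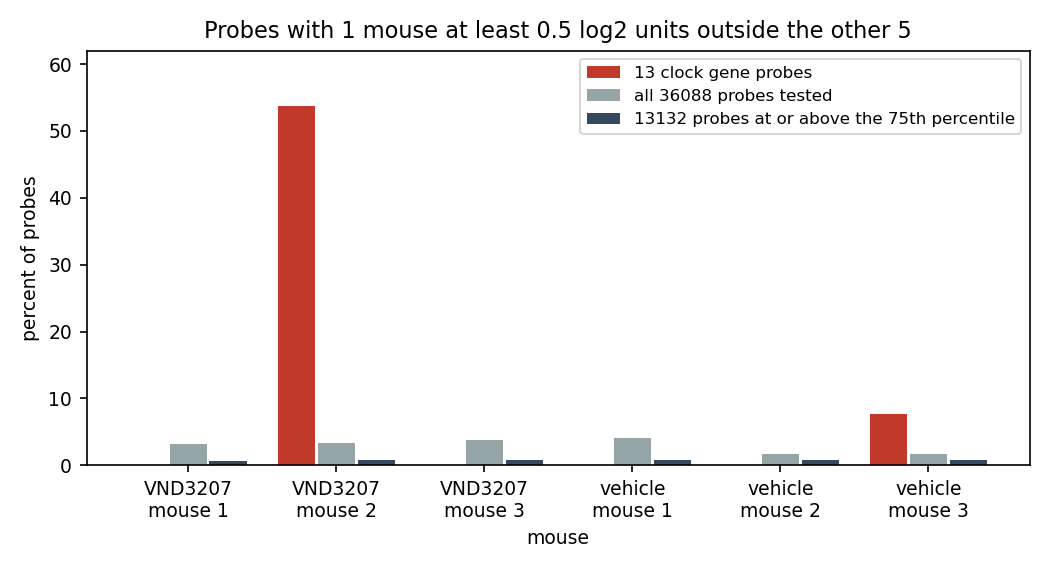
Percent of probes on which a mouse lay at least 0.5 log2 units above or below the range of the other 5 mice, for the 13 clock gene probes (red), all 36088 probes tested (grey) and the 13132 probes at or above the 75th percentile (dark blue). VND3207 mouse 2 reaches 53.8% of the clock gene probes but 3.29% of all probes. The other mice are at 0 on the clock gene probes except vehicle mouse 3 at 7.69%. The bars are a description with no test, as mouse, limit and genes were chosen with values of these data known. Some of the 13 clock gene probes are dimmer than the 75th percentile.

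Against the mean of VND3207 mice 1 and 3, VND3207 mouse 2 was lower by 2.14 log2 units for Dbp, 1.12 for Tef, 1.00 for Per2, 0.84 for Per3 and 0.77 for Nr1d2, and higher by 0.97 for Arntl. Under quantile normalization, normexp background correction, the deposited table and correction of trends, the value of Dbp stayed between -2.17 and -2.12, that of Tef between -1.16 and -1.13 and that of Per2 between -1.02 and -0.85. The value of Arntl stayed between 0.87 and 0.97, and that of the dim Per3 probe between -0.88 and -0.35. Clock (0.02), Nr1d1 (-0.18), Cry1 (0.30) and Per1 (-0.35) moved less in that mouse. The mean used here includes VND3207 mouse 3, which was the highest of all mice for Dbp, Tef, Per2, Per3 and Nr1d2. Distances of VND3207 mouse 2 below the lowest other mouse were smaller. They were 1.65 for Dbp, 0.54 for Tef, 0.77 for Per2, 0.57 for Per3 and 0.46 for Nr1d2. For Arntl it lay 0.70 above the highest other mouse.

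Markers of the cell types of the gut were read in the same mice, and VND3207 mouse 2 was outside the range of the others by 0.5 on 0 of 22 marker genes. It had the lowest Ptprc, a pan-leukocyte gene, at -1.44 against -1.12 to -0.73 in the other mice, and the lowest Sis, the brush border sucrase, at 7.72 against 7.97 to 8.25. Mean log2 signal over the 3 leukocyte genes ran from -1.19 to -0.69 in VND3207 mice, with the lowest in mouse 2, and from -0.92 to -0.88 in vehicle mice. Over the 6 enterocyte genes it ran from 7.50 to 7.74 in VND3207 mice, with mouse 2 at 7.52, and from 7.85 to 8.16 in vehicle mice, and 3 of the 6 (Fabp2, Lct and Vil1) passed the test as lower with VND3207, where 14.6% of all probes did. Under quantile normalization 0 of these 3 passed (Fabp2 at -0.13, Lct at 0.05 and Vil1 at 0.03), nor did any with trends corrected or without VND3207 mouse 2. Of the Paneth cell genes Lyz1 and Itln1, 2 of 2 passed as lower at their brightest probe, with means from 7.97 to 8.03 in VND3207 mice and from 8.47 to 8.59 in vehicle mice, and 0 of the 2 goblet cell genes passed. Itln1 was 0.01 under quantile normalization and under trend correction, and its other probes did not pass (adjusted p = 0.223 and 0.601). Lyz1 was -0.29 under quantile normalization (adjusted p = 0.123). Lyz1 still passed in limma with trends corrected, at -0.54 (adjusted p = 0.0338), and without VND3207 mouse 2, at -0.67 (adjusted p = 0.025). No probe carried the name of the third Paneth cell gene looked for, Defa24. The 3 smooth muscle genes averaged 1.33 in VND3207 mouse 3, against 3.41 to 3.75 in the other 5 mice, mouse 2 among them. The 3 fat genes ran from -1.37 to 2.59 in VND3207 mice, with mouse 2 at 0.72, and from -1.71 to 0.91 in vehicle mice. None of the leukocyte, smooth muscle and fat genes passed the test. Of the 3 pancreas genes kept, Cpa1 was well above background on 0 of the 3 VND3207 arrays and on all 3 vehicle arrays, so it was kept through the vehicle mice alone. The liver gene Alb and the pancreas gene Pnlip did not pass the filter on dim probes. The part of these cell types in the clock values was not tested.

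The wider clock was read from 36 more genes in 4 lists, of which 35 were measured. Bhlhe41, a repressor at E-boxes, had no probe above the filter. At the brightest probe of each gene 0 of 35 passed the test as higher or lower, against 0.926% and 14.6% of all probes, and 1 had an unadjusted p under 0.05, against 27.2%. The groups did not overlap for 4 of 35 (Csnk1e, Sirt1, Timeless and Tipin), all 4 above vehicle, against 9.41% of all probes above and 24.9% below. The median difference was -0.02, with 17 of 35 above 0, and the adjusted p values ran from 0.161 to 0.983.

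In the list of 5 other activators and repressors the median was -0.02. Arntl2, a relative of Arntl, differed by -0.31 ± 0.13 (adjusted p = 0.203), and by -0.52 with trends within arrays corrected, where it passed the test (adjusted p = 0.0478). The E-box repressor Bhlhe40 differed by -0.22 ± 0.20 (adjusted p = 0.557). Ciart, listed on the array as Gm129, was well above background only in VND3207 mice 1 and 3 and in vehicle mouse 3, at -4.03, -3.75 and -4.91. It was not well above background in VND3207 mouse 2 and in vehicle mice 1 and 2, so no difference is given.

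The 5 ROR and bZIP regulators had a median of -0.02. Nfil3, the repressor at D-boxes, read -0.07, 1.22 and -0.41 in the VND3207 mice, against 0.21, 0.05 and 0.01 in the vehicle mice. VND3207 mouse 2 was thus 1.01 above the highest other mouse, in the opposite direction to Dbp and Tef. The difference was 0.16 ± 0.41 (adjusted p = 0.857), and -0.33 without that mouse (adjusted p = 0.306). Hlf, the third D-box activator, chosen for mention after its values were seen, read -0.35, -1.78 and 0.27 in the VND3207 mice, against -1.08, -0.42 and -0.29 in the vehicle mice. VND3207 mouse 2 was 0.70 below the lowest other mouse and 3.35-fold below the mean of VND3207 mice 1 and 3. Rorb differed by -0.45 ± 0.38 (adjusted p = 0.518) at its brighter probe, where vehicle mouse 1 was highest at -2.58, and by 0.13 at its other probe.

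Among 10 clock outputs the median was -0.13 with 4 above 0. Abcb1a encodes the efflux pump P-glycoprotein, and in mouse jejunum its rhythm is known to depend on HLF and NFIL3. It read 3.41, 2.05 and 3.76 in the VND3207 mice, against 3.60, 3.76 and 3.69 in the vehicle mice. VND3207 mouse 2 lay 1.36 below the lowest other mouse, 2.89-fold below the mean of VND3207 mice 1 and 3, and the other 5 mice were within a narrow range. The difference was -0.61 ± 0.43 (adjusted p = 0.442), and -0.10 ± 0.15 without that mouse (adjusted p = 0.788). Por, the reductase that serves the cytochromes P450, differed by -0.26 ± 0.23 (adjusted p = 0.547), and the lipid-sensing receptor gene Ppara by -0.35 ± 0.19 (adjusted p = 0.318). The other, dimmer probes of Ppara differed by -0.03 and -0.18. VND3207 mouse 2 was the lowest of the 6 on 6 of the 10 outputs, against 19.1% of all probes. By at least 0.5 it was lower on 1 of them, Abcb1a, against 2.61% of all probes.

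The 15 kinases, ubiquitin ligases and co-regulators that act on clock proteins were counted at their brightest probes. There VND3207 mouse 2 was the lowest of the 6 on 0 genes. Over all probes it was the lowest on 19.1%. Its largest distance outside the other 5 mice on the 15 genes at these probes was 0.09. At a dimmer probe of Gsk3b it lay 0.11 above the others, and it was the lowest at a dimmer probe of Csnk1d and of Csnk1e. Vehicle mouse 1 was the lowest on 7 of the 15, against 12.4% of all probes, by less than 0.5 each time. Their median difference was 0.03, with 9 of 15 above 0. Timeless, whose product also serves at replication forks with that of Tipin, read 0.73, 0.77 and 0.82 in the VND3207 mice, against 0.47, 0.58 and 0.55 in the vehicle mice. The difference was 0.24 ± 0.09 (adjusted p = 0.161) while its other, dimmer probe gave -0.34 ± 0.10 (adjusted p = 0.0664), so the probes of this gene disagree in sign. Btrc, part of a ubiquitin ligase that marks PER proteins for degradation, differed by 0.29 ± 0.18 (adjusted p = 0.379). Its other, dimmer probe gave -0.04 ± 0.15.

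**Figure D4:**
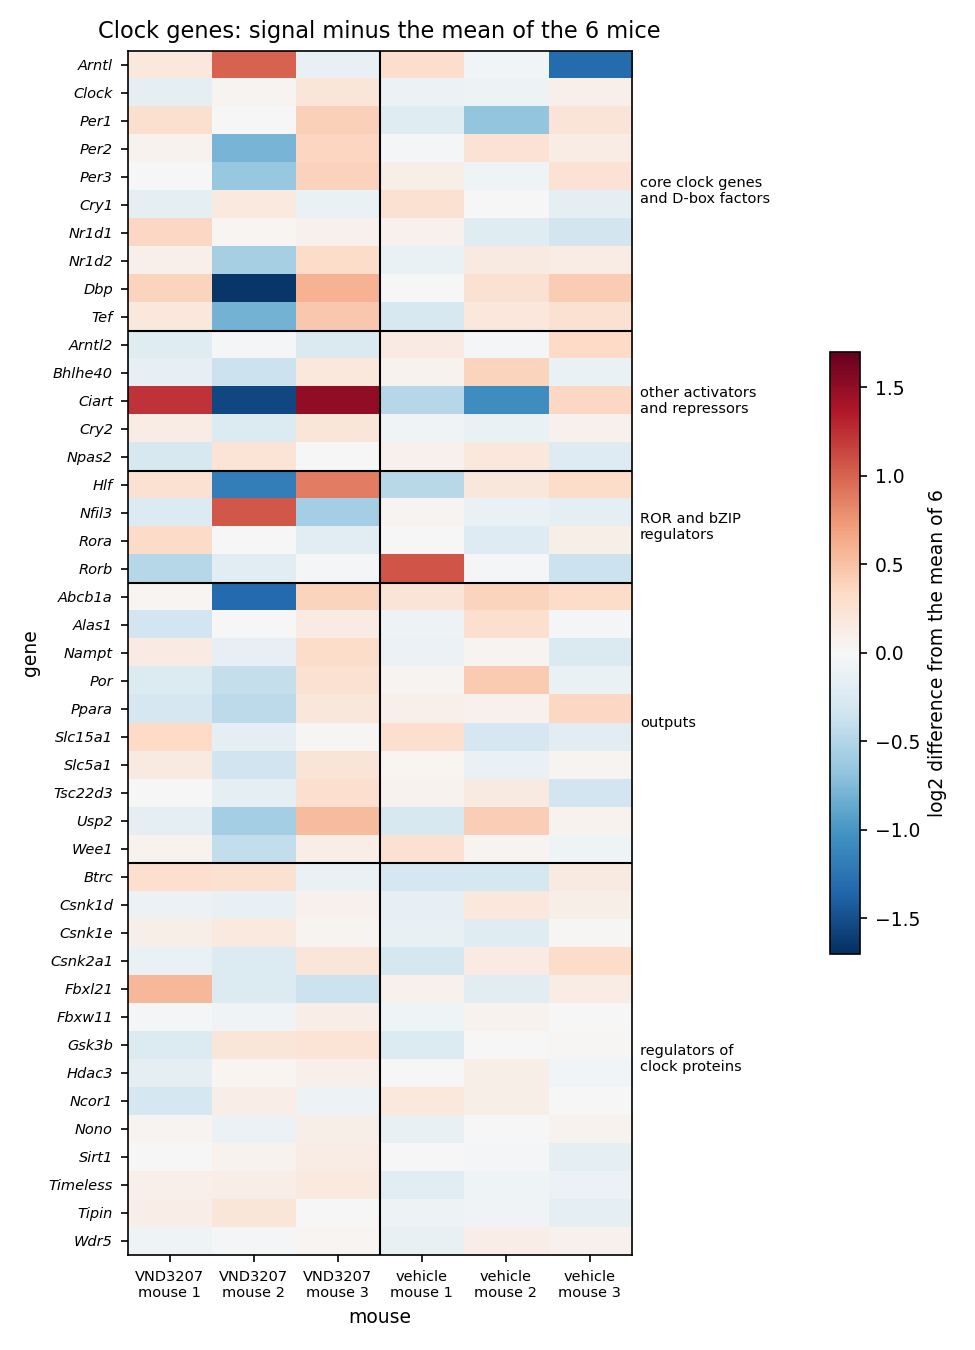
Signal of 43 clock genes in each mouse minus the mean of the 6 mice, on the log2 scale (red above and blue below the mean), at the brightest probe of each gene, with VND3207 mice left of vehicle mice and genes grouped by list. The column of VND3207 mouse 2 is darkest blue for Dbp, Ciart (not well above background in that mouse), Abcb1a and Hlf, darkest red for Arntl and Nfil3, and pale for the regulators of clock proteins.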

How the data were processed

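Gene expression was read in 6 jejunum samples, 3 VND3207 and 3 vehicle, on 1-colour arrays with 60-base probes. The members and lists were chosen with earlier results of these data known. Per the file headers, the deposited intensity values are the Cy3 signals processed by Agilent Feature Extraction 10.7.1.1, with the background subtracted but arrays left unscaled. A deposited table of log2 values, in which all 6 columns have a median of 6.05 and a 75th percentile of 9.41, served as an alternative. How the authors made that table is not given in the sources used here. Each value column was matched to its sample.

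Control spots and spots flagged as outliers were left out, the spots of a probe were averaged, and the 75th percentile of each array over 59305 non-control spots was subtracted from log2 signals. Probes well above background on at least 3 of 6 arrays were kept, and 35 probes with all spots flagged on an array were not. Groups were compared with limma 3.58.1 in R 4.3.3, using lmFit and eBayes with 2-sided tests and no term but the group. P-values rest on the spread between mice within a group, which eBayes draws toward that of all kept probes. They do not separate treatment from slide and scan. Members were named with every probe, and of other clock genes the 3 with the largest difference in each list. Some genes that this rule names are not reported here. Positions of probes are in mm9, as the files state them, and whether they lie in an exon or UTR was not analysed here. Promoters and their coordinates are from RefSeq on GRCm38.p6. The test was checked on simulated data. The number of arrays, 3 a group, limits the precision, and no spot was saturated.

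Replicate numbers were checked for pairing. Deviations from the group means of same-numbered mice correlated over probes at 0.13, -0.11 and -0.05, so the numbers were not taken as pairs. No block for slide or scan could be fitted. Alternatives were quantile normalization, normexp with an offset of 50, the deposited table, other filters and gene summaries, other variance models, array weights, smooth trends of spot position, brightness and GC content removed with mgcv 1.9.3, and each array left out. The trend correction may also take out real differences that run along those trends.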

Additional observations from a re-analysis of the deposited data

How the results depend on the processing

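No member probe passed the test in limma, in either direction, under any of the alternatives run, the lowest adjusted p among them being 0.0687 (Nr1d1, trends within an array corrected). Over all probes, the main counts of 334 higher and 5256 lower became 934 and 3237 under quantile normalization and 923 and 3185 in the deposited table. With trends corrected they were 1232 and 2399. Normexp gave 2829 lower, the filter on all 6 arrays 2926 lower, no filter 663 higher, the mean of the probes of a gene name 214 higher and an adjusted p under 0.10 817 higher. With the replicate number as a block, 143 were higher and 3410 lower, and 0 member probes passed. Leaving out 1 mouse gave 126 to 287 higher and 2970 to 5068 lower, with 126 without VND3207 mouse 1, 151 without VND3207 mouse 2, 161 without vehicle mouse 2 and 181 without vehicle mouse 3, and 2970 lower without vehicle mouse 2. The cause of these shifts was not tested.

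Of the other clock probes, 1 was called higher with trends corrected (Btrc, second probe, at 0.73, against -0.04 as reported) and 1 lower (Arntl2, at -0.52). At an adjusted p under 0.10, 1 was lower (Timeless, second probe), and 0 to 1 were lower when 1 mouse was left out. Quantile normalization moved the median over all probes to 0.05, against -0.06 as reported, and that of the member probes to 0.06, against -0.08.

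Signs turned as follows, with none of these values past the test. Clock was -0.080 under normexp and -0.0005 with trends corrected, and ran from -0.021 to 0.16 with 1 mouse left out (lowest without VND3207 mouse 3). Cry1 was 0.28 under quantile normalization and in the deposited table, 0.10 under normexp and 0.32 with trends corrected, and ran from -0.18 to 0.033 with 1 mouse left out (highest without vehicle mouse 1). Per3 was 0.17, 0.061, 0.16 and 0.20 under quantile normalization, normexp, the deposited table and trend correction.

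The highest value with 1 mouse left out came without VND3207 mouse 2, and the lowest without VND3207 mouse 3, for Dbp (-0.87 to 0.26 and, at the second probe, -0.80 to 0.29), Nr1d2 (-0.30 to 0.15 and -0.23 to 0.26), Per2 (-0.48 to 0.092), Per3 (-0.41 to 0.11) and Tef (-0.37 to 0.26). Nfil3 ran the other way, from -0.33 without VND3207 mouse 2 to 0.48 without VND3207 mouse 3. The second probe of Nr1d2 was 0.015 without vehicle mouse 3, and that of Per1 ran from -0.11 to 0.20, below 0 without VND3207 mouse 1, vehicle mouse 1 or vehicle mouse 2. Timeless was -0.051 as the mean of its probes. The height of Cry1 in VND3207 mouse 2 was 0.12 under normexp, against 0.30 as reported. Among the members, the scaling turned the sign of the dim Per3 and Cry1 probes and of Clock.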
